A study of Mus musculus with 4 samples.

Results

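The transport machinery of the photoreceptor cilium was followed through the transcripts of 36 genes in whole eyes of mice lacking both Abca4 and Rdh8. The genes were taken by name, all 36 were found among the 22558 symbols of the deposited table, and 35 had a mean of at least 1 FPKM, a fragment count scaled to transcript length and library size. Every sample was labelled Abca4-/-Rdh8-/-, 6 weeks old and whole eye, with 3 mice per condition, while the protocol in the labels speaks of retinas; rod and lens transcripts were both abundant. Abca4 encodes the flippase that clears retinaldehyde from photoreceptor discs and Rdh8 a photoreceptor retinol dehydrogenase. All eyes, the unexposed ones included, carried both deletions. Eyes were taken without light exposure or 3 h, 24 h and 7 days after it. Because 1 value per gene and condition was deposited, no difference can be set against the spread between animals and no test was possible.

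The outer segment of a rod or cone is a modified primary cilium, joined to the cell body by a narrow connecting cilium that corresponds to the transition zone of other cilia. Proteins made in the cell body enter through it, in part on intraflagellar transport (IFT) trains built of the IFT-A and IFT-B complexes, which kinesin-2 moves outwards and dynein-2 back. The BBSome, an octameric coat built with the help of chaperonin-like proteins and brought to membranes by the GTPase Arl6, moves membrane proteins along the trains. Inherited defects in many of these genes cause retinal degeneration, alone or within ciliopathies such as Bardet-Biedl and Joubert syndromes.

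The main difference lay in a few genes at 24 h. Arl6 and Ift57 were about 2-fold higher at 24 h than without light, and the ciliary kinase gene Mak was 1.48-fold higher. Rpgrip1, whose protein anchors RPGR in the connecting cilium, was at 0.657 of its no-light level. The other 31 genes that passed the filter lay between -0.37 and 0.14 in log2 change of (FPKM + 1) at 24 h, the scale of all log2 changes below. At 7 days the set lay slightly below the unexposed level, with 29 of 35 genes below 0 and a median of -0.19. Over all genes with a mean of at least 1 FPKM, 49.1% were below 0 at 7 days. The Y-linked gene Ddx3y was at 6.59 FPKM in that sample alone, so sex and time cannot be told apart there.

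The sequences before the start sites of these 4 genes are shown because they had the largest log2 changes of the set against the no-light sample. Each line gives the last 150 bases before the outermost annotated start, 5' to 3' on the gene's strand, from RefSeq on build GRCm38.p6, which is not the mm9 build of the deposited values. The windows are chr16:49699144-49699293 on the plus strand for Ift57, chr16:59639410-59639559 on the minus strand for Arl6, chr13:41079707-41079856 on the minus strand for Mak and chr14:52110753-52110902 on the plus strand for Rpgrip1. Capitals mark GTTGCC, the short binding site of the RFX factors that switch on many ciliary genes, and TAATCC, the core bound by the photoreceptor factors CRX and OTX2, each searched on both strands.
Ift57: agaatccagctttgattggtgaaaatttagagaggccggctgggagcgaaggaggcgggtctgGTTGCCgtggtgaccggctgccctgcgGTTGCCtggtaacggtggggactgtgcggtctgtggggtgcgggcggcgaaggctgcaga
Arl6: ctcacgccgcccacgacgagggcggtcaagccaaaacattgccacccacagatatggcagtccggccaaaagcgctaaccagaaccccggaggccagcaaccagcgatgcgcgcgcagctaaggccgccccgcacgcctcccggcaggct
Mak: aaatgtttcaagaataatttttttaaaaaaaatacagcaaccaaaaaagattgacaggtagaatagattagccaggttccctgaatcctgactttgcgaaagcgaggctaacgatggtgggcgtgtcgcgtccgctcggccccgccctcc
Rpgrip1: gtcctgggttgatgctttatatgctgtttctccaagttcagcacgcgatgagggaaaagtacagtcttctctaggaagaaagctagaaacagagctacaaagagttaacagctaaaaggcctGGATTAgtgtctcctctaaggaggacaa

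The Ift57 window held GTTGCC at 2 places, whose first bases lay at -87 and -60 from the start. The Rpgrip1 window held the core on the opposite strand, from -28. Neither motif stood in the 150 bases shown for Arl6 or Mak, and a second annotated start of Mak had TAATCC at -218. In the whole RefSeq windows, which run from 250 bases before to 50 bases after each start, GTTGCC was found in 13 of 39 windows of 33 of these genes, against 12.5% of all 32851 windows. A longer X-box-like pattern, GTTNCC followed after 3 free bases by GNAAC, which can contain GTTGCC, was found in Bbs7 and Ahi1, that is in 2 of 39 windows against 0.804% of all. Only this spacing was searched, so closer or wider pairs were neither counted nor marked. In the Ift57 window, GTAAC follows the GTTGCC at -60 after 2 free bases. TAATCC was found in 3 of 39, against 7.06%. These matches describe letters only, and binding was not measured.

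Arl6 showed the largest difference. Its protein recruits the BBSome to membranes in its GTP-bound form. Arl6 was at 53.9 FPKM without light, 61.5 at 3 h, 119 at 24 h and 58.6 at 7 days. The 24 h sample stood apart and the remaining 3 samples lay close together. The 24 h level was 2.202-fold that without light, with an approximate 95% counting interval of 2.06 to 2.35, which covers counting error only and not the spread between animals. Against the 3 h sample, Arl6 was 1.93-fold higher, and the 7-day level was 0.493 of the 24 h level. The other listed gene that overlaps Arl6, 4930547E14Rik, was at 0.369 FPKM or less in every sample.

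Ift57, a subunit of the IFT-B complex, had a similar course. It was at 9.64 FPKM without light, 10.9 at 3 h, 19.4 at 24 h and 11.8 after 7 days, so again the 24 h sample was the high one. The 24 h level was 2.02-fold that without light, with a counting interval of 1.72 to 2.36, and 1.79-fold the 3 h level. Only Arl6 and Ift57 of the 35 genes were at least 0.5 log2 units higher at 24 h than in each other sample, a pattern shown by 1.04% of all 14194 tested genes and described after the values were seen.

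Mak encodes a kinase that limits the length of the photoreceptor axoneme, and its loss in mice leads to retinal degeneration. Mak was at 24.1 FPKM without light, 26.9 at 3 h, 35.7 at 24 h and 18.6 after 7 days. It was 1.48-fold higher at 24 h, with a counting interval of 1.34 to 1.64, and at 0.772 of the no-light level at 7 days, with an interval of 0.691 to 0.863. Its highest and its lowest samples were thus 24 h and 7 days.

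Rpgrip1 was the lowest of the set at 24 h relative to the control. It was at 26.6 FPKM without light, 22.8 at 3 h, 17.5 at 24 h and 20.0 after 7 days, with all 3 light samples below the unexposed one. The fold at 24 h was 0.657 with a counting interval of 0.583 to 0.740, and at 7 days it was 0.752.

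**Figure D1:**
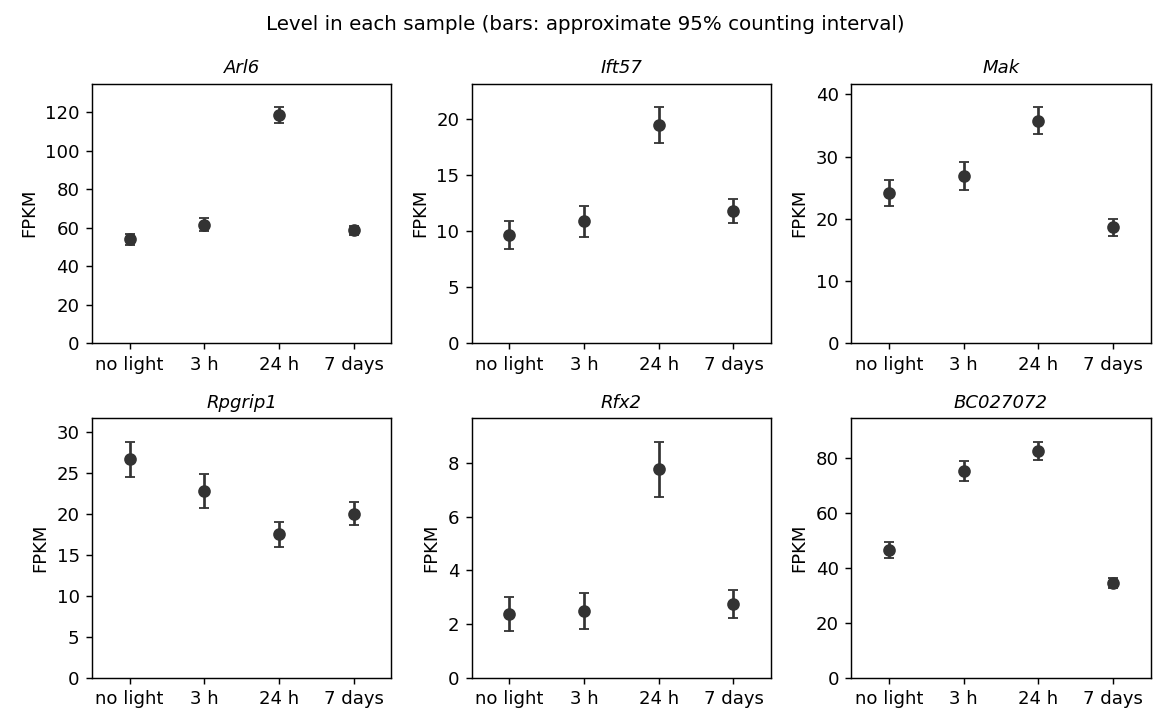
FPKM (vertical axes, starting at 0) of Arl6, Ift57, Mak, Rpgrip1, Rfx2 and BC027072 in the 4 samples (horizontal axes); points are the single deposited values and bars the approximate 95% counting interval. Arl6, Ift57 and Rfx2 stand apart at 24 h, at 119, 19.4 and 7.78 FPKM.

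Counting genes whose log2 change reached 1 in either direction, 1 of the 35 was past it at 24 h, Arl6, against 1.11% of all tested genes. None was past it at 3 h or 7 days, against 0.789% and 0.599%. At the lower threshold of 0.5, 4 of 35 were past it at 24 h, against 5.64% of tested genes; 3 were higher, against 2.71%, and 1 lower, against 2.94%. None was past 0.5 at 3 h or at 7 days, against 4.0% and 2.18%. For 24 h over 3 h, none was past 1, against 0.951%, and 4 were past 0.5, against 5.01%, with Arl6 and Ift57 higher and Bbs9 and Arl13b lower. For 7 days over 24 h, Arl6 was past 1, against 0.810%, and Arl6, Ift57 and Mak were past 0.5, all lower, against 3.63%.

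**Figure D2:**
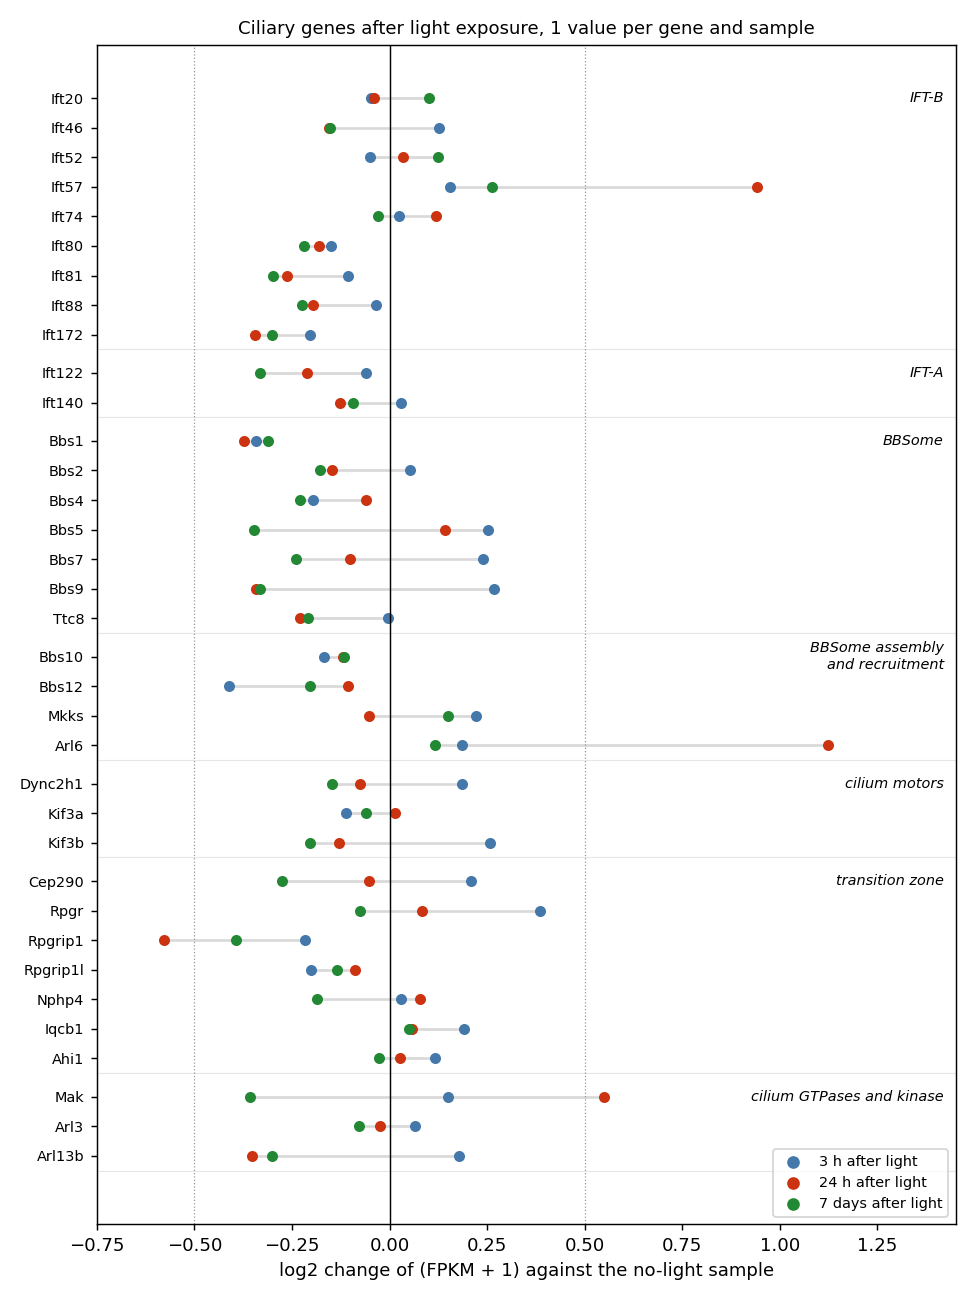
Log2 change of (FPKM + 1) against the no-light sample (horizontal axis) for the 35 genes that passed the filter, grouped by role (rows), with blue, red and green points for 3 h, 24 h and 7 days and dotted lines at -0.5 and 0.5. Most points lie between the lines, with Arl6, Ift57 and Mak to the right and Rpgrip1 to the left at 24 h.

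Among the 9 IFT-B genes, Ift57 was alone past 0.5 at 24 h. The other subunits had smaller differences, and the subunits did not all share a course. For Ift20 and Ift74 every counting interval against the control spanned the no-light level, as did those of Ift172 and Ift81 at 3 h. Ift172, the largest IFT-B subunit, was at 9.52 FPKM without light, 8.13 at 3 h, 7.28 at 24 h and 7.54 after 7 days, lower in each light sample. Ift81, which binds tubulin together with Ift74, was at 19.4, 17.98, 16.0 and 15.6 FPKM in the same order, also lower in each light sample. Its partner Ift74 was at 10.6, 10.8, 11.6 and 10.3 FPKM, within 0.12 log2 units of the unexposed sample. Ift20, which also acts at the Golgi where ciliary cargo is sorted, was at 41.6, 40.2, 40.5 and 44.7 FPKM, highest in the last sample. Ift46, Ift52, Ift80 and Ift88, further subunits of the complex, had folds between 0.837 and 1.09 at 7 days. The IFT-B median was -0.05 at 3 h, -0.16 at 24 h and -0.15 after 7 days, with 6 of 9 genes below 0 each time. Over all tested genes, 45.7%, 48.6% and 49.1% were below 0 at these times. In the IFT-A group, Ift122 was at 12.1 FPKM without light, 11.6 at 3 h, 10.3 at 24 h and 9.41 after 7 days, lowest in the last sample. The other member, Ift140, was within 0.13 log2 units of the unexposed sample throughout.

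The 7 BBSome genes were mixed at 3 h and all below the no-light level at 7 days. At 7 days their log2 changes lay between -0.35 and -0.18 with a median of -0.24, and 49.1% of all tested genes were below 0. Both rescalings kept all 7 below 0, and against the 3 h sample Bbs1 was at 0.03. Bbs9, a scaffold of the complex, was at 37.5 FPKM without light, 45.4 at 3 h, 29.4 at 24 h and 29.6 after 7 days. Bbs9 was thus highest at 3 h and low at the later times, and its 24 h level was 0.647 of its 3 h level, with a counting interval of 0.590 to 0.710. Bbs5, a subunit that binds phosphoinositides, was at 21.7, 26.04, 24.0 and 16.8 FPKM in the same order. Bbs5 was above the unexposed sample at 3 h and 24 h and below it at 7 days, at a fold of 0.776. Bbs1, the subunit that binds Arl6, was at 13.9, 10.8, 10.5 and 11.02 FPKM, lower in each light sample and without the 24 h maximum of Arl6. Bbs2, Bbs4, Bbs7 and Ttc8 were at folds of 0.878, 0.848, 0.838 and 0.861 at 7 days.

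Of the genes for BBSome assembly, Bbs12 was at 8.32 FPKM without light, 6.01 at 3 h, 7.65 at 24 h and 7.10 after 7 days, lowest at 3 h. Its fold at 3 h was 0.722 with a counting interval of 0.577 to 0.904. Mkks was at 12.3, 14.5, 11.8 and 13.8 FPKM in the same order, and Bbs10 was within 0.17 log2 units of the unexposed sample. These 3 encode the chaperonin-like proteins of the assembly step, and none followed Arl6 at 24 h.

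**Figure D3:**
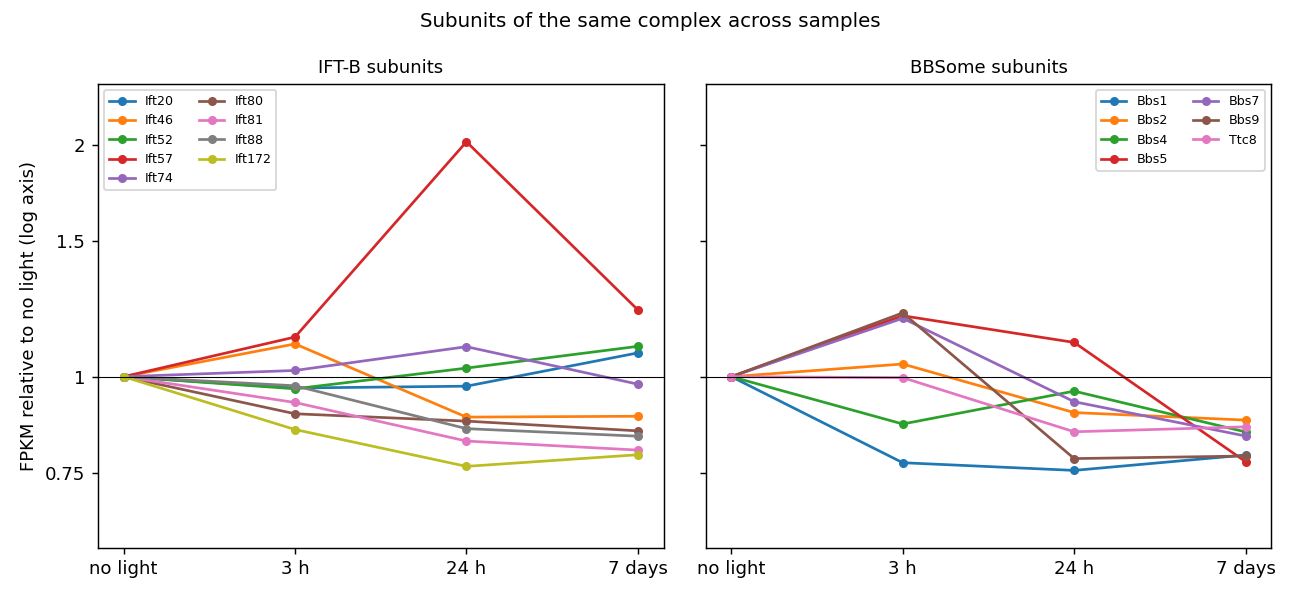
FPKM relative to the no-light sample (vertical axis, log scale) for 9 IFT-B genes (left) and 7 BBSome genes (right) in the 4 samples (horizontal axis); lines join the single values of each gene. Ift57 leaves the other IFT-B genes at 24 h, at 2.02, and the BBSome genes end between 0.776 and 0.878 at 7 days.

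Motor genes that passed the filter lay within 0.26 log2 units of the unexposed sample. Kif3b, a motor subunit of heterotrimeric kinesin-2, was at 15.1 FPKM without light, 18.3 at 3 h, 13.7 at 24 h and 13.0 after 7 days. The Kif3b fold at 3 h was 1.21, with a counting interval of 1.04 to 1.40. Its 24 h level was 0.752 of its 3 h level, with an interval of 0.653 to 0.865. Its partner subunit Kif3a was at 13.2, 12.1, 13.3 and 12.6 FPKM in the same order, without the 3 h maximum of Kif3b. Dync2h1, the heavy chain of dynein-2, was at 6.11, 7.08, 5.74 and 5.42 FPKM. Kif17, the homodimeric kinesin-2, was at 0.685, 0.518, 0.526 and 0.590 FPKM, under the filter, so no fold is given.

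In the transition zone group, Rpgr was highest at 3 h. Rpgr, an X-linked gene whose protein sits in the connecting cilium with Rpgrip1, was at 4.03 FPKM without light, 5.58 at 3 h, 4.33 at 24 h and 3.78 at 7 days. The 3 h fold was 1.38, with a counting interval of 1.05 to 1.82, whereas Rpgrip1 lay below the unexposed sample at that time. Cep290, which encodes a scaffold protein of the connecting cilium, was at 9.42, 11.04, 9.04 and 7.61 FPKM in the same order, lowest at 7 days. Nphp4, Iqcb1, Ahi1 and Rpgrip1l, which encode further proteins of the zone, lay within 0.21 log2 units of the unexposed sample at every time. Nphp4 overlaps Kcnab2, which was at 40.3 to 50.2 FPKM, so its level of 3.83 to 4.80 FPKM is uncertain. The same holds for Cep290, which overlaps 4930430F08Rik at 8.17 to 9.94 FPKM, for Dync2h1, which overlaps Dcun1d5 at 24.9 to 30.5 FPKM, and for Ift140, which overlaps Tmem204 at 10.02 to 13.2 FPKM. Dcun1d5 was highest at 3 h, as was Dync2h1. Of the 36 genes, 9 overlap another listed gene in the GRCm38 annotation, and with no strand stated, reads in an overlap cannot be told apart.

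Among the cilium GTPases, Arl3, which releases lipid-modified cargo inside the cilium, had the highest FPKM of the set in every sample, at 128.5 FPKM without light, 134.4 at 3 h, 126.3 at 24 h and 121.7 after 7 days. These levels differed by little. Arl13b, which activates Arl3, was at 14.1, 16.1, 10.8 and 11.3 FPKM in the same order, with a 24 h level at 0.673 of the 3 h level. Arl6 and Arl13b, both small GTPases of the cilium, were therefore on opposite sides of the control at 24 h, at log2 changes of 1.12 and -0.35.

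Other ciliary genes, listed by role, were read at the same times. Of 120 genes found, 103 passed the filter. At 24 h, 1 of the 103 was past a log2 change of 1, Rfx2, against 1.11% of all tested genes. Below 0 were 61 of 103, with a median of -0.04, against 48.6% of all tested genes. Rfx2, a transcription factor of the RFX family that drives ciliary genes, was at 2.37 FPKM without light, 2.48 at 3 h, 7.78 at 24 h and 2.75 at 7 days. The 24 h sample again stood apart, at 3.28-fold the no-light level with a counting interval of 2.43 to 4.43. The other RFX genes that passed the filter, Rfx1, Rfx3, Rfx5 and Rfx7, lay between -0.07 and 0.07 at 24 h. Foxj1, the factor of motile cilia, was at 0.833, 1.27, 0.969 and 1.32 FPKM in the same order.

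The list of photoreceptor axoneme and cilium genes held 15 found genes, of which 14 passed the filter. BC027072 was at 46.5 FPKM without light, 75.3 at 3 h, 82.5 at 24 h and 34.4 at 7 days, high at the 2 early times and lowest at the last. Stk30, a kinase gene related to Mak, was at 4.61, 7.08, 4.80 and 4.24 FPKM in the same order. BC027072 and Stk30 were the 2 of 14 past 0.5 at 3 h, against 4.0% of all tested genes. At 7 days, 12 of the 14 were below 0, with a median of -0.26, against 49.1% of all tested genes below 0. Rp1, which binds the axonemal microtubules, was at 142.1 FPKM at 7 days, against 205.3 without light. Its homologue Rp1l1 was at 39.0 FPKM at 7 days, against 59.9 without light. Cdhr1, a cadherin at the base of the outer segment, was at 100.7 FPKM at 7 days, against 153.0 without light. In the other lists, Mks1 of the transition zone was at 3.62 FPKM at 24 h, against 5.15 without light, and the IFT-A gene Wdr19 at 4.54 FPKM at 7 days, against 6.16 without light. Hspb11, which encodes an IFT-B subunit, was at 16.7 FPKM without light, 20.5 at 3 h, 20.2 at 24 h and 21.5 after 7 days, higher in each light sample. Unc119, which carries lipid-modified transducin, was at 512 FPKM at 7 days, against 669 without light. The medians at 7 days were -0.15 for other IFT genes, -0.07 for other BBS genes, -0.09 for other motors, -0.08 for other transition zone genes, 0.01 for the lipid cargo shuttle, -0.09 for basal body genes and 0.05 for the Rab and Arf carriers of rhodopsin.

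Rod transcripts were lower after light, and fewer cells of a type and less RNA per cell cannot be told apart in whole eyes. Rod markers, of which 19 of 20 passed the filter, had medians of -0.29 at 3 h, -0.71 at 24 h and -0.54 after 7 days, and their summed level was 17772 FPKM without light, 15264 at 3 h, 11187 at 24 h and 12180 after 7 days, with no marker at 0 in every sample. The 36 ciliary genes summed to 687.7, 714.3, 726.8 and 626.8 FPKM in the same order. Arl6 alone made up 53.9, 61.5, 119 and 58.6 FPKM of these sums. The higher sum at 24 h thus does not describe most of the set, since 24 of 35 genes were below 0 then. The median of the set lay above that of the rod markers by 0.32 log2 units at 3 h, 0.62 at 24 h and 0.35 after 7 days. None of the 35 genes of the set that passed the filter lay below the rod median at 24 h or 7 days. Changes that low were rare over all tested genes, with 2.94% at or below -0.5 at 24 h and 140 of 14194 at 7 days. An absence among 35 genes is therefore near the share of all genes. Of the 14 genes of the axoneme list, Rp1l1, at -0.61, and Cdhr1, at -0.60, lay below the rod median at 7 days. At or below -0.5 at that time were 3 of these 14, against 140 of 14194 tested genes. For markers of other retinal neurons the medians were -0.13 (24 h) and 0.03 (7 days). Rpgrip1 was the gene of the set nearest the rod median at both later times, at -0.58 (24 h) and -0.39 (7 days). The part of the rod transcripts in the ciliary values was not tested.

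**Figure D4:**
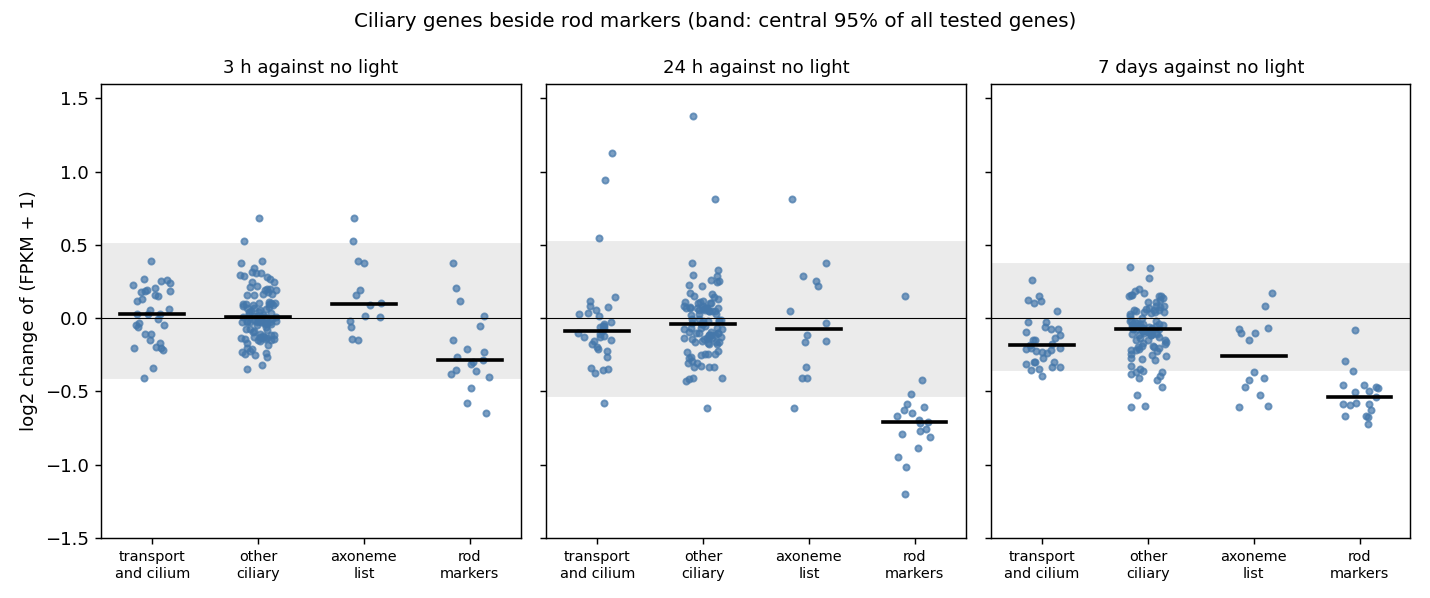
Log2 change of (FPKM + 1) against the no-light sample (vertical axis) at 3 h, 24 h and 7 days for the 35 ciliary transport and cilium genes, the 103 other ciliary genes, the 14 genes of the axoneme list (also among the 103) and 19 rod markers; points are genes, black bars medians and the grey band the central 95% of all tested genes. The ciliary medians, -0.09 and -0.19 at 24 h and 7 days, lie above the rod medians of -0.71 and -0.54.

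As a set, the 35 ciliary genes were near the unexposed level at 3 h, with 15 below 0 and a median of 0.03, against 45.7% below 0 and a median of 0.02 over all tested genes. At 24 h, 24 of 35 were below 0 with a median of -0.09, against 48.6% and 0.01. At 7 days, 29 of 35 were below 0 with a median of -0.19, against 49.1% and 0.00. The 7-day value was the lowest of the 4 for 17 of the 35 genes, against 23.5% of tested genes, a pattern described after the values were seen. The sign at 3 h turned to -0.03 when samples were rescaled to the same sum of protein-coding genes outside lens, muscle, erythroid and surface epithelium lists, and the later signs did not turn. Between successive light samples the median was -0.13 for 24 h over 3 h, with 23 of 35 below 0 against 52.5%, and -0.04 for 7 days over 24 h, with 23 of 35 below 0 against 51.4%.

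Further sample facts touch these comparisons. Lens markers took 24.2% of all FPKM without light, 20.8% at 3 h, 24.8% at 24 h and 23.7% at 7 days. Skeletal muscle markers had a median of -0.67 at 24 h, with 23 of 24 below 0, against 48.6% of all tested genes. The Y-linked gene Ddx3y was at 6.59 FPKM at 7 days and at 0.00528 or less in the other samples, so sex cannot be told apart from time at 7 days, which concerns the X-linked Rpgr too. Of 17 motile cilium genes found, 13 were under 1 FPKM in every sample and the highest reached 5.11 FPKM. Abca4 transcripts were at 34.3 to 56.3 FPKM and Rdh8 transcripts at 10.5 to 14.2 FPKM, values for whole genes that check no label.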

How the data were processed

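RNA from whole eyes was sequenced in 4 samples, labelled as eyes of 3 mice each. The authors deposited FPKM values, 1 per gene and condition. Cuffdiff 2.2.1, TopHat2 (version 2) and bcl2fastq 1.8.3 were used with build mm9, per the submitters' processing notes, and Cufflinks, per the series design. The sources used here do not give the annotation, the scaling between libraries or whether a value pools 3 libraries. FPKM sums ran from 626973 to 680305 per sample, so abundant transcripts can move all other values.

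From these values log2(FPKM + 1) changes were computed for 14194 genes with a mean of at least 1 FPKM, a scale that understates the change of low genes. Folds are plain FPKM ratios. Read counts were not used here. The FPKM of about 1 fragment was taken as the median of olfactory receptor genes above 0 in a single sample, 0.0448 without light, 0.0467 at 3 h, 0.0350 at 24 h and 0.0255 at 7 days. The 95% counting intervals use these steps, cover counting error only and are approximate, since transcript length differs between genes. The computation was tested on simulated data with changes larger than those given here for the ciliary genes, which checks the code only.

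The naming rule gave in full the genes of the set past 0.5 in a light sample, otherwise the 3 with the largest change per role, and up to 3 per other list. Further genes of the set, Rp1, Stk30 and the RFX genes besides Rfx2 are named outside it, with their values seen. The genes, lists and motifs were chosen with earlier results of these data known. Gene names were matched through RefSeq tables of GRCm38.p6, which served for symbols, neighbours and promoters, where 33 of 36 genes had an entry. Alternatives tried were no filter, a pseudocount of 0.1, a mean of at least 5 FPKM, 2 rescalings and leaving out Mak, Rpgrip1 and Kif17. Python 3.11.15, pandas 2.3.3 and numpy 2.4.6 were used.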

Additional observations from a re-analysis of the deposited data

Results flagged for a closer look

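Opposite changes at different times after light, each at least 0.3 log2 units from the same control, were found for Mak, Rp1l1, BC027072 and Crocc. None of these differences was tested, since each rests on single values and the comparisons share the control. Mak, the ciliary kinase gene, was 0.55 above the control in log2 change at 24 h and at -0.36 after 7 days. Rp1l1, a gene of the photoreceptor axoneme, was at 0.38 (3 h), -0.41 (24 h) and -0.61 (7 days). BC027072 was at 0.68 (3 h), 0.81 (24 h) and -0.42 (7 days). Crocc, the rootletin gene of the ciliary rootlet, was at 0.31 (3 h) and -0.40 (7 days).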

How the results depend on the processing

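With 1 value per condition, no spread between animals is known, and counting error alone limits the low genes most, such as Rpgr, Nphp4 and Rpgrip1l. A change of a median by over 0.1 log2 units, or of a gene beyond its counting interval, was taken as a move. With a pseudocount of 0.1, 2 genes in place of 1 were past a log2 change of 1 at 24 h. Without Mak, Rpgrip1 and Kif17, 2 genes in place of 4 were past 0.5 at 24 h, by construction. With the 3 h sample in place of the control, an alternative chosen after seeing the data, 0 genes were past 1 at 24 h (Arl6 was at 0.94) and 3 were past 0.5 at 7 days; the cause was not tested. Under that setting 27 of 35 genes were below 0 at 7 days, with a median of -0.14. Over all settings, the one with the 3 h sample as the reference included, the medians ran from -0.03 to 0.05 at 3 h, -0.13 to -0.09 at 24 h and -0.22 to -0.14 at 7 days. The -0.14 is the median against the 3 h sample. The log2 changes of single genes stayed within their counting intervals under the 5 planned settings, largely by construction. The filters leave each change as it is, and the rescalings shifted a sample by 0.07 log2 units or less against the control. With the 3 h sample as the reference, 21 of 70 moved. No paired analysis was possible because each condition has 1 value.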

Other observations

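The genes next to Ift57 and Arl6 had differing courses. Myh15, the listed gene before Ift57, was at 37.9 FPKM without light, 29.5 at 3 h, 17.7 at 24 h and 31.8 after 7 days, lowest where Ift57 was highest. Cd47, on the other side of Ift57, was at 19.9, 21.6, 26.5 and 21.0 FPKM in the same order, highest at 24 h as Ift57 was. Its 24 h level was 1.33-fold that without light, with a counting interval of 1.19 to 1.498, and its 7-day level was 0.791 of the 24 h level. Crybg3, next to Arl6, was at 6.87, 6.39, 6.20 and 6.61 FPKM, and Epha6, on its other side, at 1.098, 1.24, 0.998 and 1.04 FPKM. These neighbours were picked by position.

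Among the rod markers, Cngb1, the beta subunit gene of the rod channel, was at 0.0430 FPKM without light, 0.191 at 3 h, 0.0646 at 24 h and 0.0918 at 7 days, whereas its partner Cnga1 was at 154.3, 131.5, 98.2 and 108.7 FPKM. Cngb1 was the 1 rod marker of 20 under the filter. Its values lie near the floor, since about 1 fragment was taken as 0.0255 to 0.0467 FPKM, and the reason was not tested.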
